A study of Oryza sativa with 6 samples.

Results

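In rice grains of the mature period, 290 genes whose deposited descriptions name an enzyme or protein of cell wall synthesis or remodelling were compared between the wild type line Zhenong 34 and the mutant sg34. The members were the rows of a table of 55986 whose first descriptive name contains "cellulose synthase", "expansin", "xyloglucan endotransglucosylase", "pectinesterase", "polygalacturonase", "glucan endo-1,3-beta-glucosidase" or "arabinogalactan" and does not contain "inhibitor". Each line had 3 libraries made from total RNA of grains. The labels call the wild type the control genotype and name no mutated gene for sg34, so no targeted gene was examined. They do not say that replicates came from separate plants, and p-values therefore measure only the spread between these libraries, which may be technical.

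The plant cell wall is a network of cellulose microfibrils embedded in hemicelluloses and pectins, with structural glycoproteins. Cellulose is spun at the plasma membrane by complexes of cellulose synthase (CESA) subunits, and the matrix is then loosened, cut and rejoined by expansins and hydrolases. The starchy endosperm of rice has thin walls of arabinoxylan, mixed-linkage glucan and cellulose, laid down while the grain fills.

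The values are TPM, a relative transcript level corrected for transcript length. The depth of the libraries is unknown, so no counting intervals are given. Before testing, TPM were divided by a scaling factor for each library, from 0.702 in mutant replicate 1 to 1.66 in wild type replicate 1, and the result is called scaled TPM here. Wild type replicate 1 stood apart: 49 rows named as glutelins, prolamins or globulins, the storage proteins of the endosperm, took 5.97% of its TPM, against 27.5% to 38.9% in the other 5 libraries. The storage rows mark the samples as grain in all 6 libraries, and 2 of them were listed at 0 throughout. The 20 rows for light-harvesting proteins and the Rubisco small subunit, which mark green tissue, summed to 359 TPM in that library and to 25.3 to 178 TPM in the others, with 1 row at 0 throughout. The 4 oleosin rows, which mark oil bodies of embryo and aleurone, summed to 1017 TPM there and to 2214 to 4269 TPM in the others, with 0 rows at 0 throughout. The storage rows also differed between the lines with all 6 libraries. Limma called 7 of 41 tested rows higher in the mutant and 0 lower, with a median log2 difference of 1.83. Of all tested rows 1.89% were called higher and 1.87% lower. Summed storage rows were 34785, 405200 and 220850 scaled TPM in wild type replicates 1 to 3. In the mutant they were 549720, 484320 and 271600, so the groups overlapped. The median without wild type replicate 1 was not computed. The 15 tested green tissue rows had a median of 1.06 and the 4 oleosin rows 0.46, with 0 called in either direction in both lists. The part these marker levels have in the results below was not tested, and results are given with and without that library. In such bulk samples, fewer cells of a type and less RNA per cell cannot be told apart.

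Of the 290 members, 46 were listed at 0 in all 6 libraries and 130 more fell below the filter of 1 TPM in at least 3 libraries. The other 114 were tested with limma on log2(scaled TPM + 1), in a fit over all 16917 rows that passed the filter. None of the members passed: 0 were called higher and 0 lower in the mutant at an adjusted p of 0.05, where 3.76% of all tested rows were called, 1.89% higher and 1.87% lower. At an unadjusted p under 0.05, 6 members were higher and 9 lower, together 13.2% of those tested, against 17.3% of all tested rows (8.82% higher and 8.44% lower). On the log2 scale, mutant minus wild type, the tested members had a median of 0.05, and that of all tested rows was -0.01. Without wild type replicate 1 the members' median was 0.03, with 0 called higher and 1 called lower against 4.34% of all tested rows, and without wild type replicate 2 it was -0.05, with 2 called higher and 0 lower against 3.64%. These 3 calls rest on testing the same rows as with all 6 libraries, a choice made after the calls were seen. With rows filtered again on the 5 libraries left, 104 to 111 members were tested and 0 were called in each of the 6 fits. Few rows of the whole table were called in those fits, 133 to 471 of the 16056 to 16561 tested. The member called lower without wild type replicate 1, LOC_Os02g15690, was under 1 TPM in each mutant library. It then fell below the filter and was not tested, so the refiltered fit cannot speak to that call. Without rescaling, 0 members were called higher and 2 lower, against 2.88% of all tested rows in that fit. With library weights, which let limma give noisy libraries less influence, 13 members were called higher and 17 lower, or 26.3%, against 23.1% of all tested rows in that fit (12.6% higher and 10.5% lower).

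**Figure D1:**
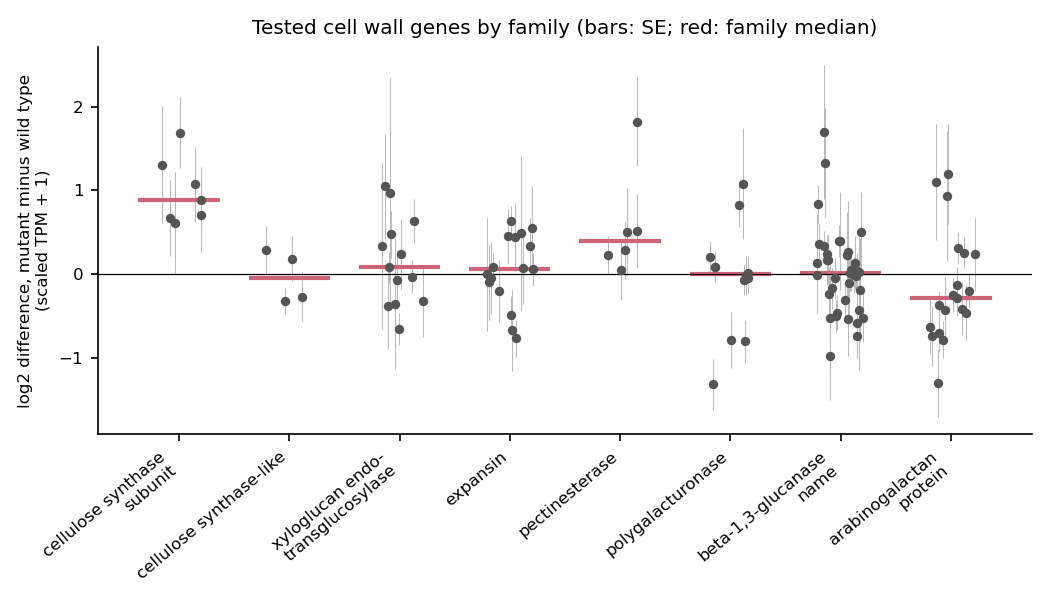
Each point is 1 of the 114 tested members, placed by family, with its log2 difference between mutant and wild type on the vertical axis and its SE as a bar; red lines are family medians. All 7 cellulose synthase subunits lie above 0, with a median of 0.88, and the arabinogalactan proteins have the lowest median, -0.28.

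In scaled TPM the groups did not overlap for 22 of the 114 tested members, 10 with the mutant above and 12 with the mutant below, or 19.3%, against 23.6% of all tested rows. Overlap is judged on scaled TPM unless TPM as deposited are named, and some of these groups overlapped as deposited. A difference of at least 2-fold was found for 10 members in the upward and 2 in the downward direction, together 10.5%, against 9.75% of all tested rows. All these shares were near the background or under it. The annotated protein domains, which did not enter the choice of members, fitted the names in most families. Names and domains both annotate the same gene models, so this is no independent check of the names. The cellulose synthase domain was annotated in 10 of 10 subunits and 12 of 12 cellulose synthase-like rows, glycosyl hydrolase family 16 in 28 of 28 xyloglucan endotransglucosylases, and the pectinesterase domain in 21 of 21 pectinesterases. Of the 78 rows with a beta-1,3-glucanase name, 63 had the catalytic family 17 domain, and 12 had an X8 domain, known to bind callose, with no catalytic domain.

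All 7 tested CESA subunits had a higher mean in the mutant than in the wild type, with log2 differences from 0.61 to 1.69 and adjusted p from 0.0998 to 0.619, so none was called. In each of the 7, wild type replicate 1 was the lowest of the 6 libraries, which held for 31.1% of all tested rows. Without that library the median log2 difference of the 7 was 0.42 in place of 0.88, with 6 of 7 above 0. Without rescaling the median of the 7 was 0.38, with 7 of 7 above 0, where all tested rows had a median of -0.43. The endosperm storage rows had a median of 1.83 with all 6 libraries. Their sum was also lowest in that library, and their scaled sums overlapped between lines. The part of the storage rows in the CESA values was not tested.

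CESA4 (LOC_Os01g54620 on chromosome 1) makes cellulose of secondary walls in rice together with CESA7 and CESA9. Scaled TPM in replicate order were 1.49, 4.83 and 2.72 for the wild type and 16.03, 13.6 and 6.30 for the mutant; later triplets keep this order. The mutant libraries all lay above the wild type, the third of them nearest to it. The means were 3.01 ± 1.69 and 11.97 ± 5.06 scaled TPM (SD, n = 3). On the log2 scale the mutant was higher by 1.69 ± 0.43 (SE), with a 95% interval from 0.68 to 2.70 and limma adjusted p = 0.0998. Over all alternatives the limma adjusted p went from 0.00495 (library weights) to 0.352 (a library left out), and without wild type replicate 1 its log2 difference was 1.38. The partner genes did not reach the filter: CESA7 (LOC_Os10g32980) had 0.18 to 0.61 TPM and CESA9 (LOC_Os09g25490) 0.01 to 0.39 TPM over the 6 libraries.

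Except for CESA6, the tested subunits mostly known from primary walls were more abundant. CESA1 (LOC_Os05g08370) was the highest of the family in both lines, with 14.9, 51.8 and 44.6 scaled TPM in the wild type and 63.0, 52.3 and 48.0 in the mutant; the groups overlapped. CESA2 (LOC_Os03g59340) had 12.1, 34.5 and 33.5 scaled TPM in the wild type and 47.6, 43.4 and 45.7 in the mutant, with no overlap. As deposited, its TPM overlapped. CESA8 (LOC_Os07g10770) had 8.33, 30.5 and 25.4 against 26.8 to 34.2 scaled TPM, and overlapped.

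The log2 differences of CESA1, CESA2 and CESA8 were 0.71 ± 0.46, 0.88 ± 0.40 and 0.67 ± 0.45 (SE), with limma adjusted p of 0.453, 0.318 and 0.473. These differences, with wild type replicate 1 left out, were 0.18, 0.42 and 0.13. CESA5 (LOC_Os03g62090) showed this most, with 2.65 scaled TPM in wild type replicate 1, 24.6 and 17.4 in replicates 2 and 3, and 25.1 to 36.3 in the mutant. On the log2 scale it differed by 1.31 ± 0.70 (SE, limma adjusted p = 0.385), and by 0.46 without that library. CESA3 (LOC_Os07g24190) had 6.53, 23.2 and 13.6 scaled TPM in the wild type and 30.1, 37.0 and 19.9 in the mutant, which is 1.07 ± 0.45 higher on the log2 scale (SE, limma adjusted p = 0.288). CESA6 (LOC_Os07g14850) had 0.94 to 9.22 against 5.11 to 8.48 scaled TPM, and its log2 difference of 0.61 turned to -0.10 without wild type replicate 1.

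**Figure D2:**
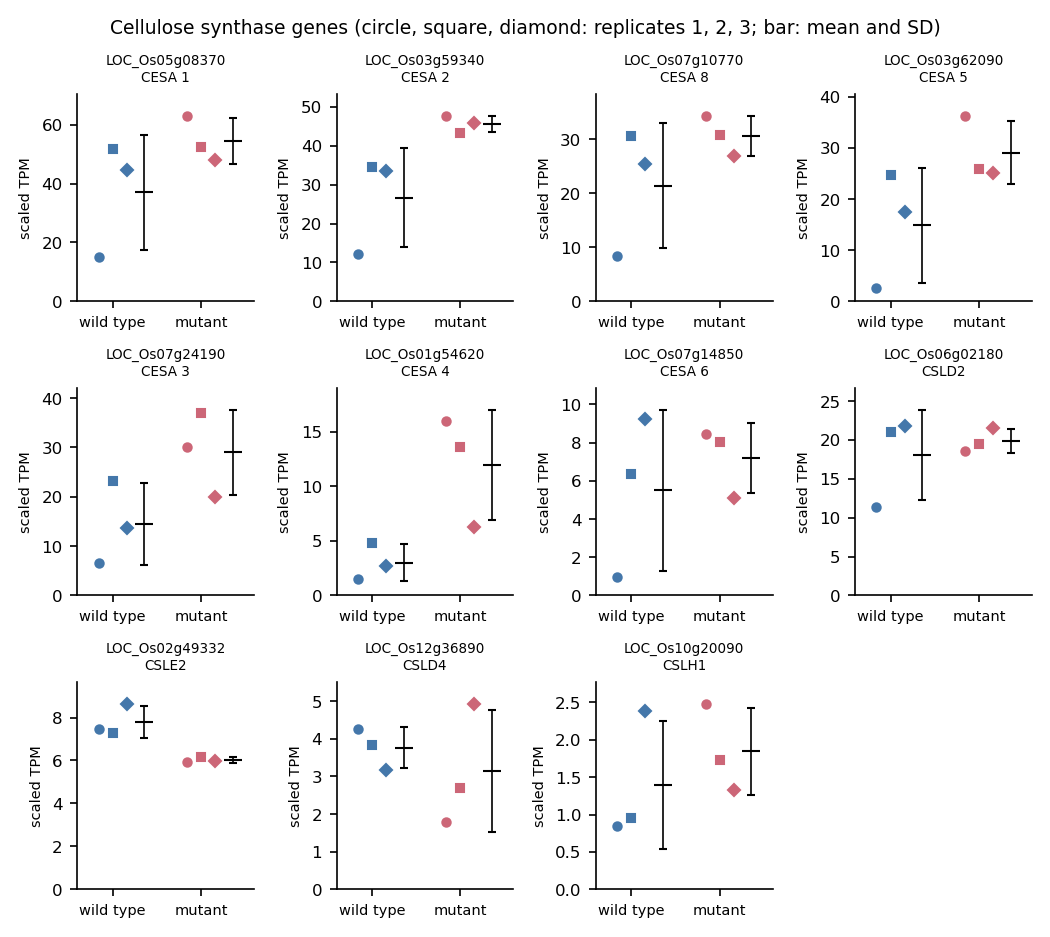
Scaled TPM of the 7 tested CESA subunits and 4 cellulose synthase-like (CSL) genes in each library, with 1 panel a gene; circles, squares and diamonds are replicates 1, 2 and 3 and the bar is the mean with SD. Wild type replicate 1 is the lowest point in each CESA panel. The CESA2, CESA4 and CESA5 panels, 42.9% of the 7, show no overlap in scaled TPM, against 10.9% of all tested rows with the mutant above. As deposited, the TPM of CESA2 overlapped.

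Cellulose synthase-like proteins make other backbone polysaccharides, and only 4 of 12 were tested. CSLD2 (LOC_Os06g02180) was the most abundant with 11.3, 21.0 and 21.8 scaled TPM in the wild type and 18.6 to 21.6 in the mutant. CSLE2 (LOC_Os02g49332) had 7.45, 7.30 and 8.64 scaled TPM in the wild type and 5.91, 6.16 and 5.97 in the mutant. These 2 groups of CSLE2 did not overlap in scaled TPM. As deposited they did, with 6.20 TPM in wild type replicate 2 and 6.36 in mutant replicate 3. The mutant minus wild type value was -0.32 ± 0.16 on the log2 scale (SE, limma adjusted p = 0.355, or 0.0476 with library weights). CSLD4 (LOC_Os12g36890), known in rice for its part in leaf width, had 3.18 to 4.27 against 1.78 to 4.93 scaled TPM, and CSLH1 (LOC_Os10g20090) had 0.84 to 2.39 against 1.33 to 2.48 scaled TPM.

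Pectin enzymes held the largest single difference among the members. Pectinesterases remove methyl groups from pectin, and the gene described as pectinesterase QRT1 (LOC_Os07g41650 on chromosome 7), named after an Arabidopsis enzyme needed for pollen grains to separate, supplied 80.3% of the family's summed level. It had 16.9, 69.5 and 27.9 scaled TPM in the wild type and 148, 139 and 76.0 in the mutant. The mutant libraries lay above the wild type, with mutant replicate 3 close to wild type replicate 2. The log2 difference was 1.82 ± 0.53 (SE) with a 95% interval from 0.56 to 3.08 and limma adjusted p = 0.145. It passed without wild type replicate 2 where the tested rows were kept (adjusted p = 0.0394) and with library weights (0.00549), and its log2 difference without wild type replicate 1 was 1.39. Wild type replicate 1, lowest in storage rows, was the lowest library here as well, and the part of the storage rows in this value was not tested.

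The other 5 tested pectinesterases also had log2 differences above 0, up to 0.52, and without rescaling 3 of the 6 were above 0. Pectinesterase 68 (LOC_Os04g46740) had 4.55 to 11.7 scaled TPM in the wild type and 7.68 to 12.6 in the mutant, and pectinesterase 53 (LOC_Os01g53990) had 0.87 to 3.90 and 2.54 to 6.18. Both overlapped between lines, with limma adjusted p of 0.689 and 0.562.

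Polygalacturonases cut the pectin backbone, and 12 of 44 were tested, 6 on each side of 0. The gene LOC_Os02g15690 on chromosome 2 had the smallest p of all members and was named after its values were seen. It had 1.75, 4.94 and 3.90 scaled TPM in the wild type and 0.87, 0.57 and 0.75 in the mutant. As deposited, its TPM were 2.90, 4.20 and 4.77 against 0.61, 0.44 and 0.80, so the groups lay apart on both scales. It met the filter of 1 TPM in 3 libraries only through the wild type, where it is higher. Its p and separation are therefore no independent support for a difference. On the log2 scale the value was -1.32 ± 0.30 (SE), with a 95% interval from -2.04 to -0.60 and limma adjusted p = 0.0750. It passed without wild type replicate 1 where the tested rows were kept (adjusted p = 0.00789), without rescaling (0.0156) and with library weights (0.00106), and reached 0.292 without mutant replicate 2 and 0.236 with the replicate number as a block.

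More abundant polygalacturonases differed less. LOC_Os01g43160 had 64.9, 34.6 and 42.7 scaled TPM in the wild type and 17.7, 28.1 and 35.7 in the mutant, or -0.79 ± 0.33 on the log2 scale (SE, limma adjusted p = 0.295). LOC_Os05g50960 had 12.5, 6.33 and 10.1 against 5.39, 4.33 and 5.11 scaled TPM, with no overlap, or -0.80 ± 0.26 on the log2 scale (SE, limma adjusted p = 0.183). As deposited, its TPM overlapped. LOC_Os02g03750 pointed the other way, with 1.75, 11.3 and 6.80 against 20.4, 17.1 and 5.48 scaled TPM, and overlapped (log2 difference 1.08 ± 0.66 SE, limma adjusted p = 0.434). The 9 rows named exopolygalacturonase, an enzyme class known from pollen, were all below the filter, 4 of them at 0 throughout.

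**Figure D3:**
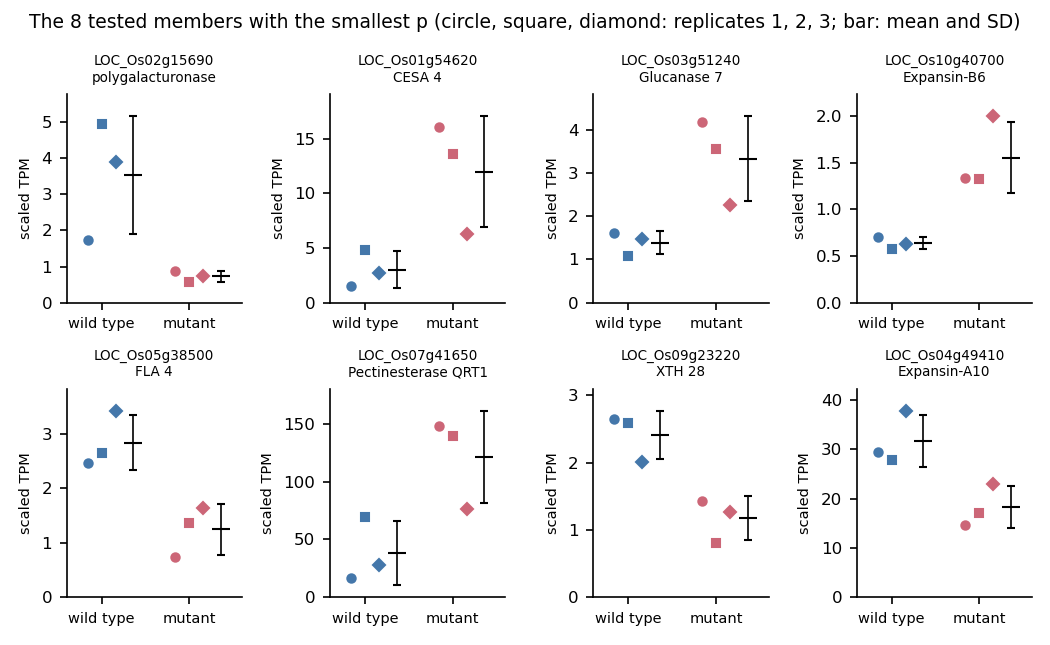
Scaled TPM in each library for the 8 tested members with the smallest p, a selection made on the values themselves; circles, squares and diamonds are replicates 1, 2 and 3 and the bar is the mean with SD. No panel shows overlap between lines, and 5 of the 8 genes have all libraries below 5 scaled TPM.

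Expansins loosen walls without cutting them, and 16 of 59 were tested: 6 of 34 alpha-expansins, 7 of 20 beta-expansins and 3 of 5 expansin-like rows. Expansin-A10 (LOC_Os04g49410) had 29.3, 27.8 and 37.7 scaled TPM in the wild type and 14.7, 17.1 and 22.9 in the mutant, with no overlap. As deposited, its TPM overlapped. Its log2 difference was -0.77 ± 0.23 (SE) with limma adjusted p = 0.149, and 0.00709 with library weights. Expansin-A5 (LOC_Os02g51040) stood out in 1 library, with 97.4 scaled TPM in wild type replicate 1 and 21.3 to 31.4 in the other 5. Its log2 difference of -0.68 became -0.10 without that library. Expansin-B4 (LOC_Os10g40730) was the most abundant, with 82.2, 27.5 and 50.9 against 29.0, 55.3 and 58.4 scaled TPM, and its log2 difference of -0.10 turned to 0.28 without wild type replicate 1.

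Expansin-B6 (LOC_Os10g40700), which lies near Expansin-B4 in locus order, was also named after its values were seen. It had 0.70, 0.58 and 0.63 scaled TPM in the wild type and 1.34, 1.33 and 1.998 in the mutant, or 0.63 ± 0.18 higher on the log2 scale (SE, limma adjusted p = 0.129). Its groups did not overlap in scaled TPM, at a level close to the filter, but they overlapped in TPM as deposited. How far reads were split between such neighbouring copies is unknown, and their single values are uncertain.

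Xyloglucan endotransglucosylases (XTH) cut xyloglucan chains and rejoin them, and 13 of 28 were tested, 7 above 0 and 6 below. In 8 of the 13, wild type replicate 1 was the lowest library. The gene described as protein 24 (LOC_Os04g51460) was the most abundant, with 0.36 scaled TPM in wild type replicate 1, 51.1 and 48.0 in replicates 2 and 3, and 46.7, 21.2 and 23.7 in the mutant. Its log2 difference of 0.97 ± 1.37 (SE, limma adjusted p = 0.732) turned to -0.76 without that library. LOC_Os06g48160 had 2.11, 13.3 and 24.7 against 13.4, 4.91 and 5.40 scaled TPM, and its log2 difference moved from -0.36 to -1.21. LOC_Os02g46910 had 3.84 to 13.7 against 7.205 to 11.6 scaled TPM (limma adjusted p = 0.793). The XTH rows LOC_Os06g48160, LOC_Os06g48170 and LOC_Os06g48200 are near each other on chromosome 6, so their single values carry the same uncertainty.

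**Figure D4:**
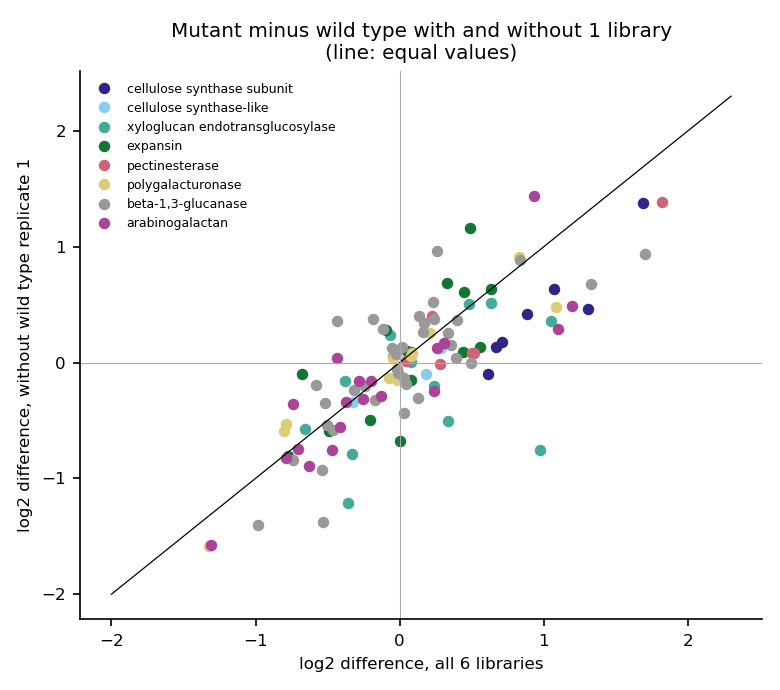
Log2 difference between mutant and wild type for the 114 tested members with all 6 libraries (horizontal) and without wild type replicate 1 (vertical); colours are families and the line marks equal values. The CESA subunits lie below the line, and 25 members change sign, among them 5 of 13 XTH genes.

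Beta-1,3-glucanases cut callose, the glucan of plasmodesmata and wound plugs, and 37 of 78 rows with such names were tested, 19 above 0 and 18 below, with a median log2 difference of 0.02. The highest was not a glucanase by its domains: LOC_Os03g54910, described as a glucanase-like protein 3, carries the X8 domain alone and made up 44.2% of the summed level. It had 396, 176 and 170 scaled TPM in the wild type and 178, 202 and 261 in the mutant. Its log2 difference of -0.11 ± 0.39 (SE, limma adjusted p = 0.896) turned to 0.29 without wild type replicate 1, the highest library. A second row with the X8 domain alone, LOC_Os05g43690, had 27.1, 64.5 and 85.9 against 65.9, 44.3 and 54.8 scaled TPM and a log2 difference of 0.03. Of the 12 such rows 9 were tested, with a median of -0.03, and of the 63 with the catalytic domain 27 were tested, with a median of 0.04.

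Among rows with the catalytic domain, glucanase 6 (LOC_Os02g04670) was the most abundant, with 35.6, 13.8 and 17.7 against 8.02, 15.9 and 18.8 scaled TPM, and overlapped. The acidic isoform LOC_Os03g22530 on chromosome 3, named after its values were seen, had 0, 9.25 and 1.13 scaled TPM in the wild type and 11.6, 8.22 and 5.48 in the mutant. Its log2 difference of 1.70 ± 0.80 (SE, limma adjusted p = 0.340) had adjusted p = 0.0391 without wild type replicate 2 where the tested rows were kept, the only wild type library within the mutant range. Glucanase 7 (LOC_Os03g51240), also named after its values were seen, had 1.61, 1.08 and 1.48 against 4.17, 3.56 and 2.26 scaled TPM, with no overlap and limma adjusted p = 0.122. As deposited, its TPM overlapped.

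Arabinogalactan proteins are heavily glycosylated proteins of the cell surface, and they gave the highest summed level of the families. Of 38, 19 were tested, and 13 of the 19 had a lower mean log2 value in the mutant, with a median of -0.28. The median was -0.29 without wild type replicate 1 and -0.72 without rescaling, where all tested rows had a median of -0.43. In 5 of the 19 the mutant lay below the wild type without overlap and in 1 above, or 26.3% and 5.26%, against 12.7% and 10.9% of all tested rows.

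Arabinogalactan protein 1 (LOC_Os08g37630 on chromosome 8) had 84.4, 194 and 120 scaled TPM in the wild type and 77.1, 46.0 and 35.2 in the mutant. The mutant lay below the wild type, with mutant replicate 1 close to wild type replicate 1. The log2 difference was -1.31 ± 0.40 (SE) with a 95% interval from -2.26 to -0.35 and limma adjusted p = 0.166. It was -1.58 without wild type replicate 1 (adjusted p = 0.1003) and passed without rescaling (0.0246) and with library weights (0.00913). The row has no annotated domain and no protein match, so its description is uncertain.

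Fasciclin-like proteins carry an adhesion domain. Protein 7 (LOC_Os08g39270) had the highest mean scaled TPM of the family, with 186, 339 and 321 in the wild type and 155, 153 and 229 in the mutant, or -0.63 ± 0.33 on the log2 scale (SE, limma adjusted p = 0.374). Protein 10 (LOC_Os04g48490) had 251, 252 and 224 against 205, 205 and 222 scaled TPM, which did not overlap but differed by -0.20 ± 0.21 (SE) on the log2 scale. As deposited, its TPM overlapped. Protein 2 (LOC_Os08g23180) had 74.7, 212 and 203 against 213, 151 and 164 scaled TPM, and its log2 difference of 0.24 turned to -0.24 without wild type replicate 1.

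A fasciclin-like protein 1 gene (LOC_Os08g38270) and a protein 4 gene (LOC_Os05g38500) were named after their values were seen. The first had 72.3, 95.9 and 67.5 against 56.6, 41.6 and 44.5 scaled TPM (log2 difference -0.71 ± 0.22 SE, limma adjusted p = 0.180), and the second 2.46, 2.65 and 3.42 against 0.74, 1.36 and 1.64 (-0.79 ± 0.22 SE, limma adjusted p = 0.131). In both the mutant lay below the wild type without overlap. The rows described as protein 16 on chromosome 3 pointed the other way: LOC_Os03g57460 had 11.96 to 16.96 against 17.5 to 20.0 scaled TPM, and the nearby LOC_Os03g57490 differed by 1.20 ± 0.60 on the log2 scale (SE, limma adjusted p = 0.359).

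Summed over all members of a family, with no test, CESA subunits came to 123.6 ± 67.4 scaled TPM in the wild type and 208.3 ± 29.5 in the mutant (SD, n = 3), or 161.6 in the wild type without replicate 1. Pectinesterases came to 55.5 ± 30.7 and 142.8 ± 44.8 scaled TPM, and arabinogalactan proteins to 1160 ± 257 and 927.0 ± 85.6. The arabinogalactan sum of wild type replicate 1, 878.5 scaled TPM, lay within the range of the mutant libraries, 836.4 to 1007. Polygalacturonases had 101.0 to 123.9 scaled TPM in the wild type and 88.9 to 93.4 in the mutant, the 1 family besides CESA and pectinesterase whose scaled sums did not overlap. As deposited, the polygalacturonase sums were 85.8 to 205.7 against 65.5 to 94.8 TPM and the CESA sums 79.0 to 180.0 against 163.9 to 188.9 TPM, so both overlapped, while pectinesterase stayed apart, with 47.3 to 75.5 against 98.2 to 124.4 TPM. The arabinogalactan sums, which overlapped once scaled, lay apart as deposited, with 1173 to 1495 against 647.8 to 1000.1 TPM. For CESA the gap in scaled sums was narrow, with 176.2 scaled TPM in wild type replicate 2 and 177.2 in mutant replicate 3. Expansins, XTH and beta-1,3-glucanase names overlapped, with means of 234.1 and 201.2, 92.5 and 86.1, and 552.6 and 491.0 scaled TPM. Cellulose synthase-like genes had 32.2 and 33.1 scaled TPM. Leaving out single libraries changed the size of several of these differences, mutant minus wild type, and for XTH and cellulose synthase-like genes also the sign. Without wild type replicate 1 the difference went from -32.9 to -1.60 scaled TPM for expansins, from -61.6 to -13.9 for beta-1,3-glucanase names, from -18.8 to -12.1 for polygalacturonases, from 84.7 to 46.7 for CESA and from -233.2 to -374.1 for arabinogalactan proteins. Without wild type replicate 2 it was -61.0 for expansins, -103.1 for beta-1,3-glucanase names and -122.9 for arabinogalactan proteins. The XTH difference of -6.47 ranged from -33.9 without wild type replicate 1 to 13.6 without wild type replicate 3, and the cellulose synthase-like difference of 0.85 from -2.80 to 3.64 without the same libraries; leaving out any of the 6 libraries moved these small differences by more than 1.5 times. As deposited, without rescaling, the mutant mean was lower than the wild type mean for each family except CESA and pectinesterase. The whole table also shifted down without rescaling, where all tested rows had a median log2 difference of -0.43.

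**Figure D5:**
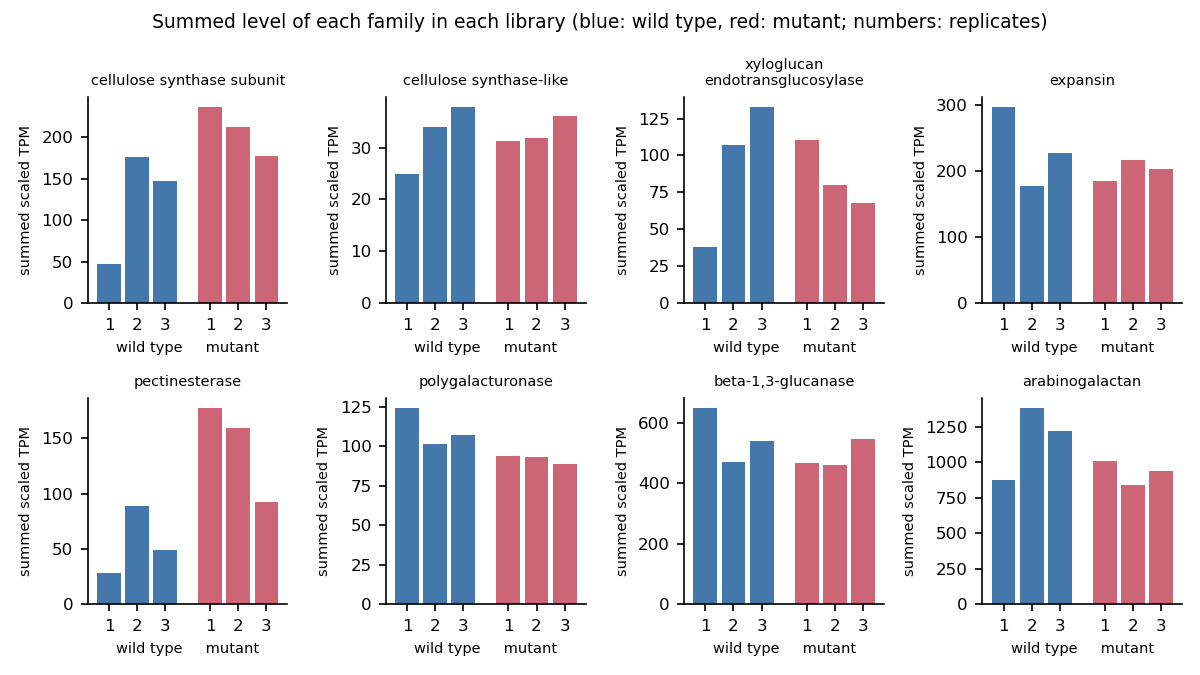
Summed scaled TPM of each family in each library, with 3 wild type libraries in blue and 3 mutant libraries in red. The CESA and pectinesterase bars of the mutant all exceed those of the wild type, and the polygalacturonase bars of the mutant are all lower.

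Of the 176 members below the filter, 148 stayed under 1 TPM in every library, and 2 reached 5 TPM in some library. These were a glucanase GII gene (LOC_Os01g71670) with 8.74 TPM in wild type replicate 3 and at most 1.19 elsewhere, and a polygalacturonase gene (LOC_Os11g14400) with 6.42 TPM in wild type replicate 1 and at most 0.98 elsewhere. No member met the limits for detection in 1 line only, at least 5 TPM in each library of a line with at most 0.1 TPM in each library of the other.

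Other wall genes, in 8 lists taken from the same descriptions, comprised 445 rows with 154 tested, of which 2 were called higher and 0 lower in the mutant, or 1.30% against 3.76% of all tested rows. The 1 called row in the list for xylan and other hemicelluloses, LOC_Os08g40680, is described as xylanase inhibitor protein 2, of a class that blocks microbial xylanases and does not build the wall. It rose from 0.60, 1.71 and 2.52 scaled TPM in the wild type to 13.7, 8.73 and 8.68 in the mutant, or 2.17 ± 0.34 on the log2 scale (SE, limma adjusted p = 0.0171). The call was lost without wild type replicate 2 and without mutant replicates 1, 2 or 3, with adjusted p from 0.0505 to 0.0832, and with the replicate block (0.116). A second row of that description, LOC_Os11g47520, had 4.42, 98.1 and 38.6 against 477, 431 and 171 scaled TPM and was not called (log2 difference 3.57 ± 1.03 SE, limma adjusted p = 0.144).

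In the nucleotide sugar list, 1 of 19 tested rows was called, LOC_Os03g05360, described as UDP-glucose 6-dehydrogenase 1, which supplies sugar acids for pectin and xylan. It rose from 0.27, 1.24 and 0.61 scaled TPM to 3.22, 2.93 and 3.16, or 1.30 ± 0.24 on the log2 scale (SE, limma adjusted p = 0.0332). Transposon domains are annotated in the same gene model, so its description is uncertain. The call was lost without rescaling (0.0969), with a pseudocount of 0.1 (0.0715), with no filter (0.0927), with the replicate block (0.150), without wild type replicate 3 (0.118) and without mutant replicates 1, 2 or 3 (0.107 to 0.144).

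The counts called were 0 of 2 tested for mixed-linked glucan, 0 of 9 for callose, 0 of 15 for cellulose helpers, 1 of 29 for xylan and other hemicelluloses, 0 of 32 for pectin, 0 of 6 for names with inhibitor and 0 of 42 for wall proteins and lignin. The mixed-linked glucan synthase 6 gene (LOC_Os08g06380), the main source of that glucan in rice, had 4.12, 53.8 and 35.1 against 65.3, 40.3 and 37.7 scaled TPM, again with wild type replicate 1 lowest (limma adjusted p = 0.512). The beta-galactosidase 9 gene (LOC_Os06g37560) had 13.1, 196.9 and 82.2 against 208.8, 194.5 and 114.6 scaled TPM (limma adjusted p = 0.441). The extensin-like gene LOC_Os10g41160 had 114 to 288 against 242 to 329 scaled TPM, and the callose synthase 5 gene LOC_Os01g33960 had 37.3 to 124 against 29.0 to 98.3. The endoglucanase 10 gene LOC_Os03g52630 had 39.4 to 72.7 against 58.8 to 74.0 scaled TPM. The UDP-arabinopyranose mutase 1 gene LOC_Os03g40270, which provides arabinose for arabinoxylan, had 89.6 to 119 against 72.2 to 80.1 scaled TPM with no overlap (log2 difference -0.40 ± 0.20 SE, limma adjusted p = 0.355). The gene described as pectinesterase/pectinesterase inhibitor 51, LOC_Os01g65790, had 19.3 to 28.7 against 23.6 to 33.8 scaled TPM (limma adjusted p = 0.494).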

How the data were processed

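Messenger RNA of mature rice grains was measured in 3 wild type and 3 mutant libraries. The authors deposited TPM per gene; the submitters' processing notes list RSEM, Bowtie2, StringTie, DESeq2 1.12.4 and HISAT2 2.1.0 without saying which step used which. The notes name a mouse genome build, which does not go with rice locus IDs; the build is not given in the sources used here. Mutant columns headed sg31 to sg33 were matched by replicate number to sg34, the only mutant. Per-sample columns left unused numbered 0.

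The test took rows reaching 1 TPM in 3 or more libraries. A trimmed mean of M values without weights (30% of M and 5% of A trimmed) gave the divisor of each library, and log2(value + 1) was tested with limma 3.58.1 in R 4.3.3, using its trend option, with Benjamini-Hochberg adjustment over all tested rows. Fold changes on this scale understate the change of low genes. The script was tested on simulated data. Fits without a library kept the same rows, a choice made after results were seen; rows filtered again are an added alternative. Same-numbered libraries did not deviate together (correlations -0.541, 0.0032 and -0.368).

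Members and lists were chosen with earlier results of these data known. Named genes were, per family, the 3 with the highest mean TPM, up to 12 more at least 2-fold apart with no overlap and a mean of at least 5 TPM in the higher line, any called member, and per other list the called rows and the most abundant one. Genes named outside this rule were chosen after their values were seen. Chromosomes were read from locus IDs. Alternatives were TPM as deposited, other pseudocounts and filters, no trend, library weights, a replicate block and leaving out each library.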

Additional observations from a re-analysis of the deposited data

How the results depend on the processing

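Members called by limma numbered 0 higher and 0 lower with pseudocounts of 0.1 and 5, no filter, at least 5 TPM in 3 libraries, no trend and the replicate block. In that order, 3.51%, 3.34%, 1.85%, 2.66%, 3.69% and 1.5% of all tested rows were called in these fits. Without rescaling 0 were higher and 2 lower (2.88% of all tested rows were called), and with library weights 13 higher and 17 lower (23.1%); the cause was not tested. With each library left out in turn, members called ranged from 0 to 2 higher and from 0 to 1 lower. Of all tested rows, 1.89% to 4.34% were called in these fits. With rows filtered again, an alternative chosen after seeing the data, 0 of the 104 to 111 members then tested were called. Of all rows, 133 to 471 of the 16056 to 16561 tested were called in those fits. LOC_Os02g15690 was not among those tested without wild type replicate 1. In the other lists 2 were higher and 0 lower. There 1 was higher without rescaling, with a pseudocount of 0.1 or with at least 5 TPM in 3 libraries, and 0 with the replicate block. With library weights 20 were higher and 22 lower, or 27.3%, against 23.1% of all tested rows. With a library left out, the other lists held 0 to 3 higher and 0 to 1 lower with the same rows, and 0 to 2 higher and 0 to 1 lower with rows filtered again. Replicate numbers did not pair the libraries, and the block added no call. Without rescaling, the mutant minus wild type difference of summed TPM was -10.5 for cellulose synthase-like genes, -136 for expansins, -63.3 for polygalacturonases, -290.1 for beta-1,3-glucanase names and -591 for arabinogalactan proteins. All tested rows then had a median log2 difference of -0.43. Count models were not run, since the deposited values are TPM.

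The 37 genes named by the rule above had 515 values under an alternative. Of these values, 459 kept their direction and side of the threshold and 29 turned sign. A call was gained in 14 (12 of these with library weights) and lost in 13. Genes named outside the rule, such as LOC_Os02g15690, were not counted here. Without rescaling the log2 difference turned to -0.22 for LOC_Os02g46910, -0.18 for LOC_Os04g46740, -0.49 for LOC_Os05g43690, -0.31 for LOC_Os06g02180, -0.29 for LOC_Os08g23180, -0.19 for LOC_Os01g65790 and -0.21 for LOC_Os03g52630. With library weights it turned to -0.56 for LOC_Os02g46910, 0.15 for LOC_Os03g54910, -0.67 for LOC_Os04g51460, -0.68 for LOC_Os05g43690, -0.077 for LOC_Os06g02180, -0.29 for LOC_Os08g23180, 0.16 for LOC_Os10g40730 and 0.43 for LOC_Os01g33960. With each library left out in turn, it went from -0.21 to 0.58 for LOC_Os02g46910, -0.32 to 0.29 for LOC_Os03g54910, -0.011 to 0.58 for LOC_Os04g46740, -0.76 to 1.88 for LOC_Os04g51460, -0.44 to 0.37 for LOC_Os05g43690, -0.094 to 0.34 for LOC_Os06g02180, -1.21 to 0.29 for LOC_Os06g48160, -0.24 to 0.49 for LOC_Os08g23180, -0.50 to 0.28 for LOC_Os10g40730 and -0.44 to 0.46 for LOC_Os01g33960. TPM keep no depth, so the precision of low values is unknown.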
